A study of Mus musculus with 10 samples.

Results

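The comparison described here is macrophages after 3 h of Pam3CSK4 against macrophages after 1 h of the same ligand. It rests on 4 of the 10 libraries of the series, 2 at each time, taken by their labels, and covers the 11407 of 11617 listed genes that had a mean of at least 1 CPM (reads scaled to a common library size) over all libraries. All groups were bone-marrow-derived macrophages of C57BL/6 mice. Their medium held GM-CSF at 50 ng/ml, which drives myeloid growth, and 10% FBS. The labels give the mice as 6 weeks old under origin and 7 weeks old in the growth protocol. Pam3CSK4 was given at 10 ng/ml for 1 h (replicates 1 and 3) or 3 h (replicates 2 and 3). The remaining libraries are untreated control cells (replicates 2 and 3), which carry no time label, and cells given AmTARS for 1 h (replicates 2 and 3) or 3 h (replicates 1 and 3). The series record calls both agents ligands of the receptor TLR2, and comparing mRNA levels under them is its stated purpose. The AmTARS dose is written as 0.5 with the unit mm, so the doses of the agents cannot be matched. The labels do not say whether the 2 replicates of a group are separate animals or cultures, so the p-values measure a spread between libraries that may be technical. That spread is pooled over the groups of all 10 libraries and drawn toward that of other genes. It is not the spread of the 4 Pam3CSK4 libraries alone.

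Pam3CSK4 is a synthetic triacylated lipopeptide. TLR2 binds it as a pair with TLR1, recruits the adaptor MyD88 and the IRAK kinases, and through TRAF6 and TAK1 activates the IKK complex and the MAP kinases. IKK releases NF-κB from its inhibitors of the IκB family, while the MAP kinases act on serum response factor and AP-1. In macrophages this gives a first wave of short-lived mRNAs of immediate-early transcription factors, feedback inhibitors and some cytokines, followed by genes that need chromatin remodelling or newly made proteins. Many mRNAs of the first wave carry AU-rich elements in their 3′ untranslated region, through which proteins of the tristetraprolin family (gene Zfp36) hasten their decay.

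Each library held 27398791 to 37559810 reads in listed genes, with 27398791 and 35836270 at 1 h and 34186338 and 37400483 at 3 h. All 12 macrophage markers were listed, and their summed level was 54283 to 54726 CPM at 1 h and 53750 to 56044 CPM at 3 h. Of 10 neutrophil markers 9 were listed, at a summed 2149 to 2542 CPM at 1 h and 2352 to 2762 CPM at 3 h, ranges that overlap. In the test described below 2 of them passed as higher at 3 h (22.2%, against 16.2% of all genes), Mpo (0.33) and Ngp (0.18). With the spread of the 4 Pam3CSK4 libraries alone 1 was higher, and after a correction for length and GC content 5 were. Their median change of 0.11 ran from -0.018 to 0.24 when 1 Pam3CSK4 library was left out. Ly6g, a defining neutrophil marker, was not listed, and neither was any of 10 T and NK cell or 6 erythroid markers. Stromal markers, 8 of 9 listed, summed to 1456 to 1583 CPM at 1 h and 1372 to 1566 CPM at 3 h. The ranges of 3 further marker lists did not overlap. Of 10 dendritic cell markers 3 were listed (Itgax, Ccr7 and Cd24a), with sums of 112 to 115 CPM at 1 h and 119 to 122 at 3 h, and none of the 3 passed. Mast cell and basophil markers, 5 of 7 listed, summed to 17.8 to 18.6 CPM at 1 h and 18.8 to 25.1 at 3 h. The lower 3 h sum lay close to the 1 h range. Hdc was higher (0.56), 1 of the 5 (20%, against 16.2% of all genes). The B cell marker Cd79b, listed of 7, was at 2.03 to 2.07 CPM at 1 h and 1.56 to 1.61 at 3 h and did not pass. The part of other cell types in the results was not tested. In bulk RNA, fewer cells of a type and less RNA per cell cannot be told apart.

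Between 1 h and 3 h many chemokine and NF-κB genes rose, as did the interleukin genes Il1b and Il6, the enzyme genes Irg1, Nos2 and Ptges, and Tlr2 itself, while the early-response genes Egr1 and Zfp36 fell. In limma's test with Benjamini-Hochberg adjustment over all genes, 3597 genes passed an adjusted p of 0.05, which is 31.5% of those tested. Of these, 1851 were higher at 3 h (16.2%) and 1746 were lower (15.3%). Most changes were small: the median size among the genes that passed was 0.297 on the log2 scale, and 3127 of them (86.9%) changed less than 1.5-fold. Large changes went almost entirely upward. A rise of at least 2-fold was found for 128 genes (1.12%) and a fall of that size for 11 (0.0964%), and 11 genes rose at least 4-fold. Folds in these counts are of CPM + 1, which understates the ratio of mean CPM in scarce genes, so some of those are left out. Both 3 h libraries lay above both 1 h libraries for all 128, and below them for all 11. Over all genes tested, both 3 h libraries were above both 1 h libraries for 30.0% and below them for 33.5%, together 63.5%. The count of changed genes was 2381 without replicate 1 of the 1 h group, 1318 higher and 1063 lower. Below, rose and fell are used for genes past this test, and counts within a gene list stand beside these shares of 16.2% and 15.3%. Values per library are in CPM, and n is 2 per group. Changes are differences of log2(CPM + 1) with the standard error (SE), which uses the spread pooled over all groups.

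**Figure D1:**
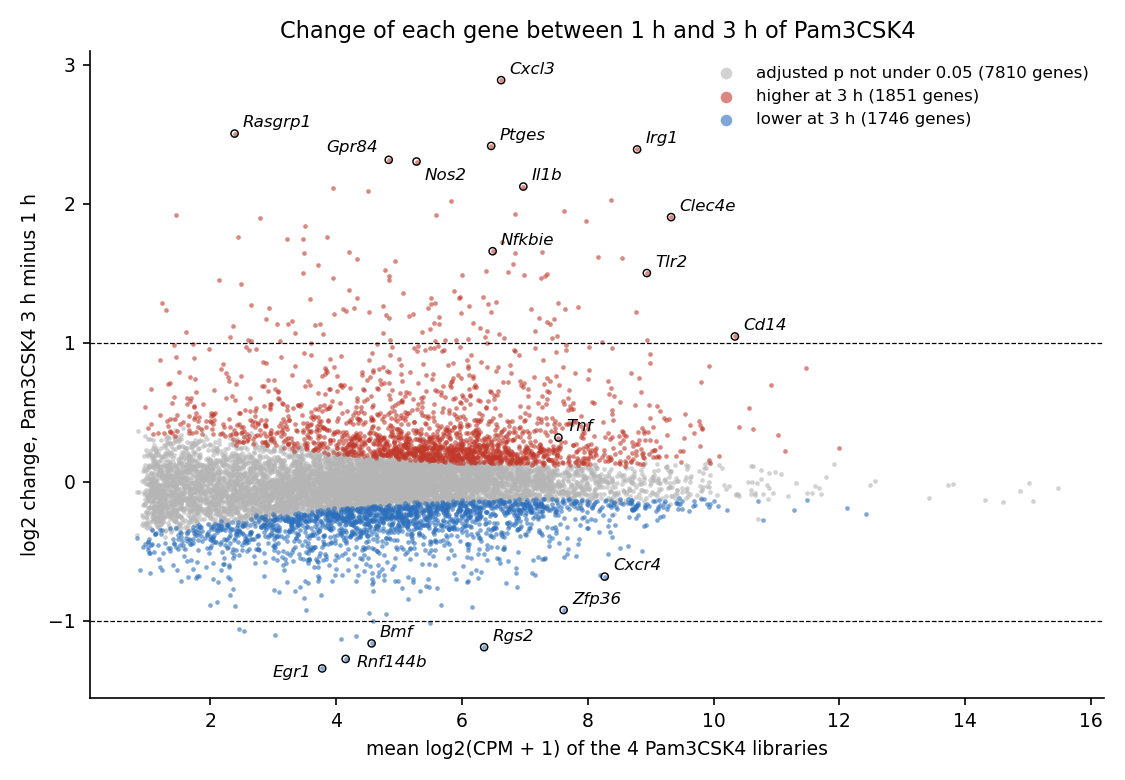
Each point is 1 of the 11407 genes tested; the horizontal axis is its mean log2(CPM + 1) over the 4 Pam3CSK4 libraries and the vertical axis its log2 change from 1 h to 3 h. Red marks the 1851 genes that were higher, blue the 1746 that were lower and grey the rest; beyond the dashed lines at 2-fold lie 128 genes above and 11 below.

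The libraries at 3 h differed from each other more than those of any other group, with a chi-square of their read counts per degree of freedom of 7.61 against 3.62 to 4.69 elsewhere. Among the genes that changed at least 2-fold, this difference mostly ran in the direction of the change. These genes were chosen by the mean of the same libraries and are not a separate set. Replicate 3 lay above replicate 2 in 121 of the 128 genes that rose at least 2-fold, by a median of 0.25 on the log2 scale, and below it in 9 of the 11 that fell that far. Over all genes tested the median difference was 0.00073, and 5734 of 11407 were higher in replicate 3. The 2 libraries at 1 h differed by a median of -0.0027 in those 128 genes. When the spread was estimated from the 4 Pam3CSK4 libraries alone, 1498 genes were higher and 1311 lower. The 128 and the 11 genes all still passed, though they were chosen for large changes in these libraries.

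**Figure D2:**
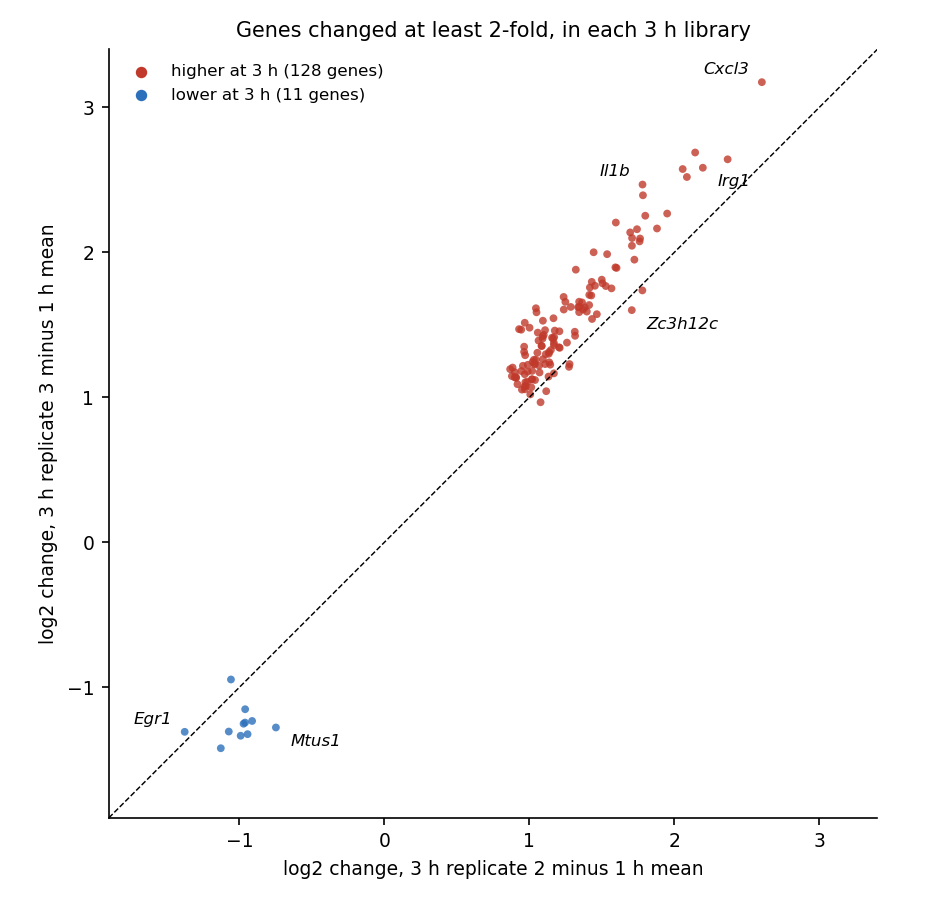
The 139 genes that changed at least 2-fold, each as its log2 change from the 1 h mean in 3 h replicate 2 (horizontal) and in 3 h replicate 3 (vertical); the dashed line marks equal change. Of the 128 red points (higher at 3 h) 121 lie above the line, and of the 11 blue points 9 lie below it.

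Among the lists of genes for secreted proteins, the CXC chemokine list had the highest median change in mRNA. Of 10 CXC chemokine genes tested 6 rose and none fell, with a median change of 0.84 against -0.01 over all genes. Cxcl1, Cxcl2 and Cxcl3 encode ligands of CXCR2 that draw neutrophils, and stand close together on chromosome 5. In the RefSeq promoter windows (GRCm38.p6, 250 bases before to 50 after the start), all 3 hold the same 11 letters. Within these letters, matches to the NF-κB consensus overlap. They are shown in capitals because Cxcl3 has the largest log2 change of the comparison and the others are its neighbours. The stretches run 5′ to 3′ on the plus strand, at chr5:90785981-90786100 for Cxcl3, chr5:90903751-90903870 for Cxcl2 and chr5:90891121-90891240 for Cxcl1. The letters in capitals end 63, 87 and 61 bases before the start.
Cxcl3: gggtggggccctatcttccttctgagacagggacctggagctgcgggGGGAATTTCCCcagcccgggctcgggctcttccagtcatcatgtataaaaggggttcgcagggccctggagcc
Cxcl2: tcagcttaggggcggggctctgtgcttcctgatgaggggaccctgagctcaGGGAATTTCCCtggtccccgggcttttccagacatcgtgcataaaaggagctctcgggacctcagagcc
Cxcl1: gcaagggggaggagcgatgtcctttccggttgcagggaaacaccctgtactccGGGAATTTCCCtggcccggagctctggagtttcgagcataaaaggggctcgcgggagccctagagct

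With the same matches in their promoters, the 3 genes differed in when most of their rise came on the log2 scale. In CPM each of them gained more after 1 h than before it. Cxcl3 was at 23.6 and 24.3 CPM in control, 35.7 and 34.7 at 1 h, and 219 and 326 at 3 h. Its change of 2.89 (SE 0.11, adjusted p 1.7e-13) was the largest of all genes tested on the log2(CPM + 1) scale. The ratio of mean CPM was 7.73-fold, and the scarcer genes Ccl20 and Rasgrp1 had larger ratios. Cxcl2 had already gone from 16.7 and 18.8 CPM in control to 129 and 128 at 1 h, and reached 252 and 369 at 3 h, a further 1.24 (SE 0.11). Cxcl1 lay between, at 12.6 and 12 CPM in control, 57.0 and 51.2 at 1 h and 149 and 219 at 3 h (1.72, SE 0.11). No library of 3 h overlapped the 1 h group in any of the 3, as in 63.5% of all genes tested. Cxcl5, a further CXCR2 ligand, went from 10.6 and 10.8 to 23.4 and 29.6 CPM (1.23, SE 0.09). Cxcl10, an interferon-inducible ligand of CXCR3, went from 14.6 and 9.33 to 26.0 and 32.6 CPM (1.25, SE 0.14), and its 1 h libraries differed from each other. The platelet chemokines Pf4 and Ppbp and the stromal Cxcl12 did not pass, with changes from -0.05 to 0.10.

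CC chemokines act on monocytes, T cells and dendritic cells. Of the 12 tested genes of their list 9 rose and none fell; 1 of the 9 is Ccrl2 (0.59), a chemokine receptor-like gene, so that 8 of 11 chemokine genes rose. Ccl3, which draws monocytes and other leukocytes, rose from 51.2 and 49.0 to 104 and 155 CPM (1.33, SE 0.11). Ccl2, which draws monocytes through CCR2, was at 21.3 and 22.7 CPM in control, 28.1 and 27.1 at 1 h and 58.5 and 76.9 at 3 h (1.25, SE 0.09). Ccl4 rose by 0.83 (SE 0.10), Ccl9 by 0.62 and Ccl7 by 0.54. Ccl20, the ligand of CCR6, was scarce at 0.37 and 0.446 CPM at 1 h and reached 3.56 and 5.19 CPM. Its change of 1.92 (SE 0.16) on the log2(CPM + 1) scale understates a 10.7-fold ratio of mean CPM.

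Of 21 cytokine genes tested 14 rose (66.7%) and 1 fell. Without replicate 3 of the 3 h group 9 rose and 2 fell. The largest rises of the list were those of Il1b and Il6. Il1b, the precursor that inflammasomes process, was at 59.9 and 58.8 CPM at 1 h and at 206 and 332 at 3 h (2.12, SE 0.13). Il6 went from 2.22 and 2.95 to 9.79 and 15.5 CPM (1.90, SE 0.17). Lif rose by 1.56 (SE 0.11), Il12a, the p35 subunit of interleukin 12, by 1.45 (SE 0.14) and Il1a by 1.24 (SE 0.11). The groups did not overlap in these genes, as in 63.5% of all genes tested. Inhba, the activin A subunit, rose by 0.90 (SE 0.11) from 9.89 and 13.1 CPM to 22.7 and 21.7; its control libraries were at 26.6 and 22.7 CPM, so it came back to about the control level. Il15 was the 1 member that fell, from 11.5 and 10.6 to 8.02 and 8.44 CPM (-0.39, SE 0.08).

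Tnf stood apart from these interleukins. It had gone from 23.7 and 23.6 CPM in control to 165 in each library at 1 h, and was at 186 and 228 CPM at 3 h. The rise of 0.32 (SE 0.07) had an adjusted p of 0.064 without replicate 3 of the 3 h group. Il12b, the p40 subunit, was at 2.15 and 1.59 CPM at 1 h and 2.38 and 3.52 at 3 h, and its rise of 0.45 (SE 0.17, adjusted p 0.045) had an adjusted p of 0.39 without that library and 0.27 without replicate 3 of the 1 h group. Il10 was listed but below the minimum level for testing.

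**Figure D3:**
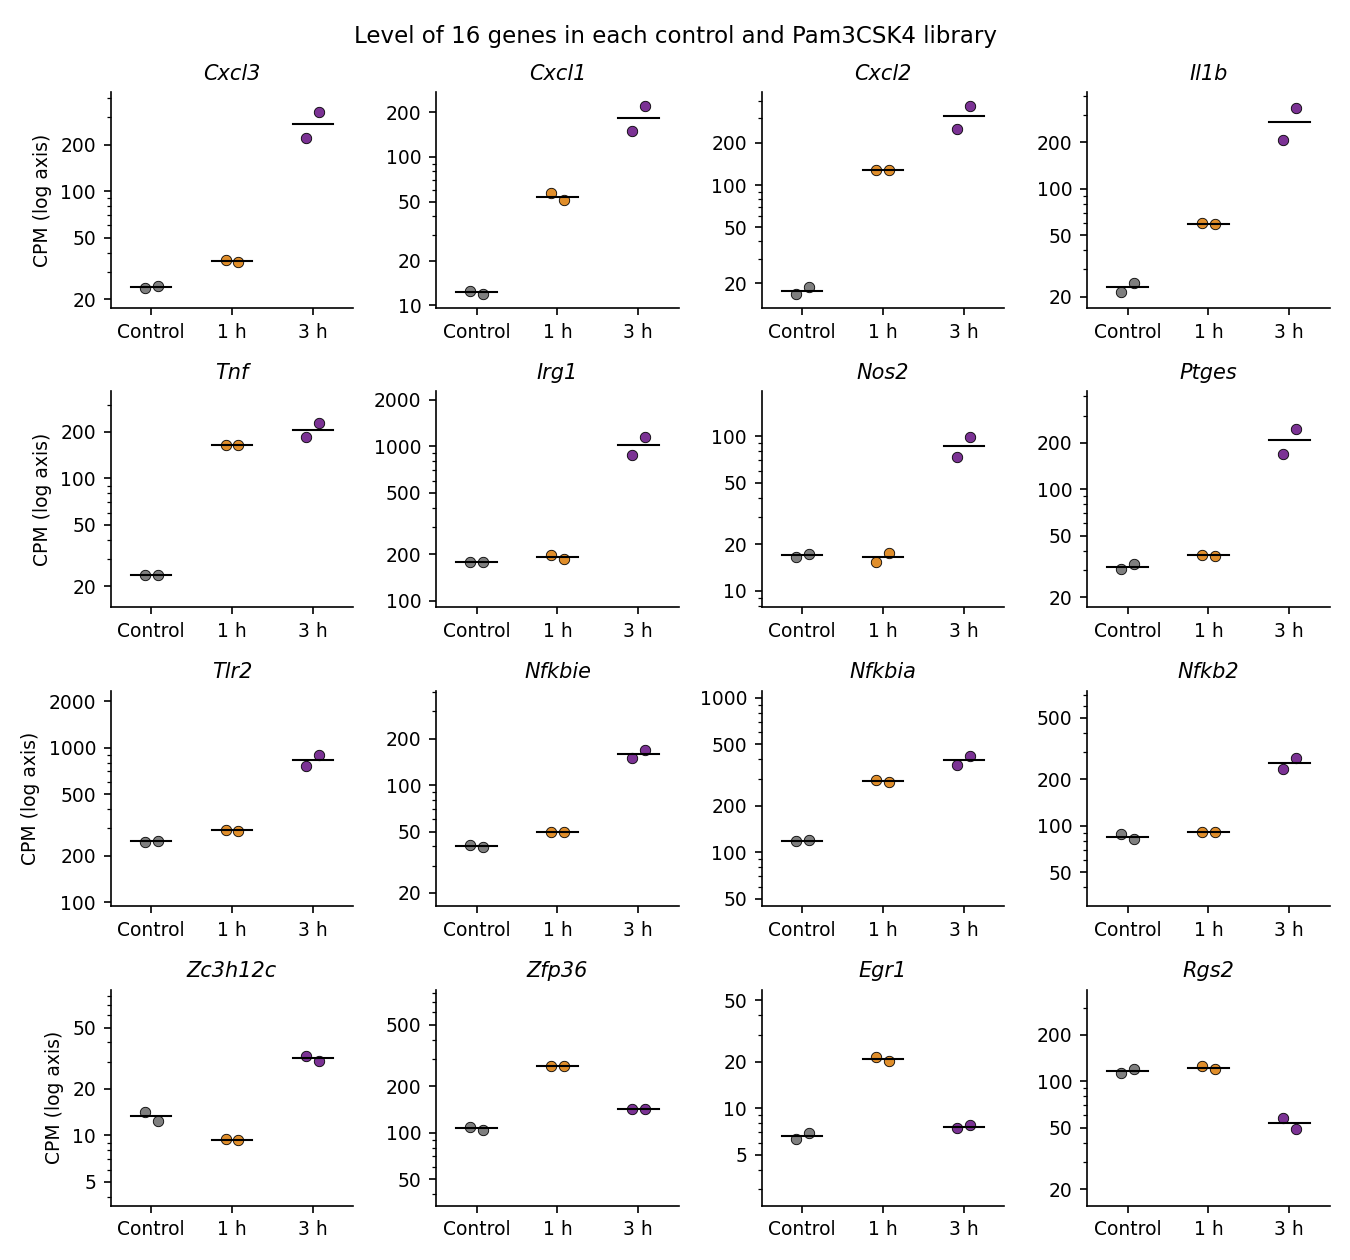
CPM on a log axis of 16 genes in each of the 2 control libraries and the 2 Pam3CSK4 libraries at 1 h and at 3 h; points are libraries and bars group means. Cxcl3, Irg1, Nos2, Ptges, Tlr2, Nfkbie and Nfkb2 rose mainly after 1 h, Tnf and Nfkbia mainly before it, and Zfp36 and Egr1 were highest at 1 h.

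The receptor of the ligand was among the genes that rose. Tlr2 went from 292 and 290 CPM at 1 h to 760 and 896 at 3 h (1.5, SE 0.06, adjusted p 1.7e-13), with control at 245 and 249. Its promoter window holds overlapping matches to the NF-κB consensus, the last ending 163 bases before the RefSeq start. They are in capitals in the following stretch of the minus strand (GRCm38.p6, chr3:83841768-83841858, 5′ to 3′).
Tlr2: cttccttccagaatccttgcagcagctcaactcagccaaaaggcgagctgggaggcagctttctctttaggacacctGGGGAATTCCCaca

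Its partner Tlr1 was slightly below control at 1 h (23.9 and 23.2 against 29.2 and 29.3 CPM) and rose to 52.1 and 59.3 CPM (1.21, SE 0.07). Cd14, a co-receptor that passes lipopeptides and lipopolysaccharide to TLRs, rose from 906 and 900 to 1667 and 2084 CPM (1.04, SE 0.07). Irak2, the kinase that sustains MyD88 signalling, rose by 0.78 (SE 0.05), and Tlr6, which pairs with TLR2 for diacylated lipopeptides, by 0.36 (SE 0.08). The adaptor Myd88 itself rose by 0.32 (SE 0.05). Tlr4 and Tlr7 had changes of -0.19 and -0.20 that passed, with adjusted p of 0.34 and 0.096 without replicate 3 of the 3 h group. In all, 14 of 25 genes of the TLR2 and MyD88 pathway rose and 3 fell, 8 rose and 2 fell without replicate 1 of the 1 h group, and 12 rose and 0 fell without replicate 3 of the 3 h group. The genes whose level followed that of Tlr2 most closely over the 10 libraries were Casp4, Ptges, Gpr84, Traf1 and Slc2a6, with Pearson correlations of log2 level from 0.996 to 0.998. The points share libraries and depth, and the likeness was searched over all genes tested.

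Genes of NF-κB and its inhibitors rose as a group: 10 of 11 tested, none lower, with a median of 0.69, and 10 in each fit that left out 1 Pam3CSK4 library. Nfkbie, which encodes IκBε, led it, from 49.3 and 49.8 CPM at 1 h to 149 and 169 at 3 h (1.66, SE 0.06). Nfkb2, the p100 precursor, was close to control at 1 h (91.4 in each library, control 88.4 and 81.7) and at 233 and 277 CPM at 3 h (1.46, SE 0.06). Nfkb1, the p105 precursor, rose by 1.18 (SE 0.07) and Relb, partner of p52, by 1.14 (SE 0.06). Nfkbia, which encodes IκBα, the inhibitor that is resynthesised first, had most of its rise before 1 h: 118 and 120 CPM in control, 295 and 285 at 1 h, 368 and 422 at 3 h (0.44, SE 0.05). Nfkbid, a nuclear IκB protein, did not pass at 47.7 and 49.6 CPM against 46.6 and 45.5, a change of -0.08 with a 95% interval of -0.22 to 0.07. The promoter window of Nfkbie holds a match to the NF-κB consensus that ends 97 bases before the start, shown in capitals for the plus strand at chr17:45555580-45555699 (GRCm38.p6, 5′ to 3′).
Nfkbie: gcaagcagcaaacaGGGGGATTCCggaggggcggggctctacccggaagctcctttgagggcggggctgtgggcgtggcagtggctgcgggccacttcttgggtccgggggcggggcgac

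Negative regulators of the pathway rose too, 10 of 16 with 2 lower, 1 of which was lower without replicate 1 of the 1 h group or without replicate 2 of the 3 h group. Irak3, a kinase-dead IRAK that holds back MyD88 signalling, was at 63.0 and 66.3 CPM at 1 h, below control at 79.5 and 74.6, and at 175 and 212 at 3 h (1.56, SE 0.07). The A20-binding proteins Tnip3 and Tnip1 rose by 1.37 and 1.28 (SE 0.06 each). Tnfaip3, which encodes the ubiquitin-editing enzyme A20, rose in both intervals: 49.2 and 47.2 CPM in control, 78.9 and 85.1 at 1 h, 128 and 143 at 3 h (0.72, SE 0.06). Socs3, an inhibitor of cytokine receptor signalling, went from 122 and 119 to 165 and 194 CPM (0.56, SE 0.07). Usp18, which removes the ubiquitin-like ISG15 and curbs interferon signalling, fell from 94.6 and 83.9 to 66.5 and 67.9 CPM (-0.40, SE 0.06).

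Regulators of mRNA decay moved in both directions. The 3 tristetraprolin genes fell: Zfp36 from 268 and 271 to 142 and 141 CPM (-0.92, SE 0.05), after 108 and 104 in control, Zfp36l1 by 0.65 (SE 0.05) and Zfp36l2 by 0.56 (SE 0.07). Regnase genes, which encode ribonucleases that cut stem-loops in cytokine mRNAs, went both ways. Zc3h12c rose from 9.44 and 9.36 to 32.9 and 30.6 CPM (1.65, SE 0.08) and Zc3h12a from 90.2 and 96.8 to 145 and 166 CPM (0.72, SE 0.06), while Zc3h12d fell by 0.53 (SE 0.08). N4bp1, an endoribonuclease-like inhibitor of cytokine responses, rose by 0.91 (SE 0.05). No library of one time overlapped the other in any of these genes, as in 63.5% of all genes tested. Of the 10 genes of this list 4 rose and 4 fell (40% each, against 16.2% and 15.3% of all genes).

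The AU-rich nonamer TTATTTATT was searched on the sense strand of the 3′ untranslated region of 1 annotated transcript per gene (GENCODE M21). It was present in 7.51% of all tested genes with such a region (835 of 11123), in 10.7% of the genes that rose and in 6.45% of those that fell. Among the genes that rose at least 2-fold it was in 18 of 128 (14.1%), and among those that fell that far in 0 of 11. Cxcl2 holds 4 copies, Cxcl1 2 and Cxcl3 1. The median length of this region was 1552 bases in genes that rose and 778.5 in genes that fell, and its part in these shares was not tested.

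Of 24 immediate-early transcription factor genes 11 were lower (45.8%, against 15.3% of all genes) and 6 higher. Egr1 had the largest fall of all genes tested. It was at 6.34 and 6.92 CPM in control, 21.6 and 20.1 at 1 h and 7.41 and 7.83 at 3 h, so that the 3 h libraries stood near control (-1.34, SE 0.09, adjusted p 6.4e-10). The orphan nuclear receptor Nr4a1 fell from 23.5 and 26.1 to 16.7 and 16.5 CPM (-0.55, SE 0.10), Klf2 by 0.44 (SE 0.08) and Fos from 91.5 and 95.9 to 74.4 and 70.5 CPM (-0.37, SE 0.05). Junb remained well above its control of 181 and 171 CPM, at 384 and 366 at 1 h and 331 and 325 at 3 h. Its change of -0.19 (SE 0.06) passed with an adjusted p of 0.024, and had 0.16 without replicate 1 of the 1 h group and 0.085 without replicate 3 of the 3 h group. The members that rose were Maff, a small Maf protein, from 8.04 and 8.11 to 16.7 and 21.5 CPM (1.14, SE 0.11), the AP-1 genes Fosl1 (0.51, SE 0.11) and Fosl2 (0.30, SE 0.06), Srf (0.28), Ier3 (0.24) and Klf6 (0.18). The adjusted p of Ier3 was 0.094 without replicate 3 of the 3 h group, and that of Klf6 was 0.062 after a correction for length and GC content.

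Dusp1, the phosphatase that inactivates p38 and JNK, is induced early but did not fall with Egr1. It was at 33.9 and 34.5 CPM in control, 85.1 and 86.2 at 1 h and 75.5 and 92.6 at 3 h. The groups overlap, and the change of -0.03 has a 95% interval of -0.21 to 0.14 (adjusted p 0.80). Of 16 MAP kinase feedback genes 4 rose (25%, against 16.2% of all genes) and 3 fell (18.8%, against 15.3%), with a median of -0.007. The 4 were Dusp16, a JNK and p38 phosphatase (1.22, SE 0.08), the Ras-ERK inhibitors Spred1 (1.03, SE 0.05) and Spred2 (1.01, SE 0.11), and Dusp4 (0.79, SE 0.08). None of them was above its control libraries at 1 h.

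Enzymes that make antimicrobial and lipid mediators were among the largest rises. Irg1 (also known as Acod1), which makes itaconate from aconitate, was at 179 in each control library, 198 and 186 CPM at 1 h, and 882 and 1154 at 3 h (2.39, SE 0.08). Nos2, the inducible nitric oxide synthase, was close to control at 1 h, 15.4 and 17.5 CPM against 16.6 and 17.2, and at 73.2 and 99.1 CPM at 3 h (2.30, SE 0.10). Slc7a2, the arginine transporter that feeds it, rose from 64.3 and 67.8 to 128 and 151 CPM (1.06, SE 0.06), and Gch1, which starts synthesis of its cofactor tetrahydrobiopterin, by 0.74 (SE 0.07). Odc1, Arg1 and Arg2, which turn arginine toward polyamines and urea, rose by 0.76, 0.46 and 0.49. In this list 7 of 8 rose and none fell.

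The list of prostaglandin and leukotriene enzymes and receptors moved in both directions, 5 of 16 up (31.2%, against 16.2% of all genes) and 6 down (37.5%, against 15.3%), with 3 up without replicate 3 of the 3 h group. Ptges, the inducible prostaglandin E synthase, rose from 37.4 and 37.1 to 168 and 246 CPM (2.42, SE 0.10), and Ptgs2, the inducible cyclooxygenase upstream of it, from 49.2 and 51.8 to 79.1 and 102 CPM (0.82, SE 0.08). Hpgd, which breaks prostaglandin E2 down, fell from 14.3 and 13.7 to 8.43 and 6.47 CPM (-0.83, SE 0.09). The constitutive cyclooxygenase Ptgs1 fell by 0.39 (SE 0.06), and the leukotriene C4 synthase Ltc4s by 0.49 (SE 0.10). None of these groups overlapped, as in 63.5% of all genes tested.

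Surface receptors for microbes and metabolites gave several of the largest rises. Clec4e, the receptor Mincle for mycobacterial glycolipid, went from 340 and 322 to 1083 and 1420 CPM (1.90, SE 0.08). The scavenger receptors Olr1, Marco and Msr1 rose by 1.74 (SE 0.11), 0.95 (SE 0.09) and 0.73 (SE 0.05), and Clec5a by 1.04 (SE 0.07). Of 15 lectin, scavenger and Fc receptor genes 9 rose and 3 fell, Clec10a (-0.43), Fcgr1 and Fcgr3 (-0.21 each), of which 1 was lower without replicate 1 of the 1 h group. Gpr84, a receptor for medium-chain fatty acids, went from 12.4 and 11.3 to 52.3 and 75.2 CPM (2.32, SE 0.11). Hcar2, the receptor for nicotinic acid and beta-hydroxybutyrate, went from 10.3 and 9.64 to 36.7 and 56.6 CPM (2.09, SE 0.12). Fpr1 and Fpr2, receptors for formylated bacterial peptides, rose by 1.95 and 1.51 (SE 0.08 each). Chemokine receptors behaved otherwise: Ccr2 fell from 14.4 and 13.7 to 9.08 and 7.21 CPM (-0.72, SE 0.09) and Cxcr4 from 390 in each library to 272 and 216 CPM (-0.68, SE 0.07). The lipid receptor Lpar5 fell by 0.70 (SE 0.12). Over the receptor list 42.9% were higher and 31.4% lower, against 16.2% and 15.3% of all genes. Of 35 receptor genes 15 rose and 11 fell, with 6 falling when replicate 3 of the 3 h group was left out.

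Genes for contact with T cells rose in 12 of 16 cases and fell in none. Cd40 went from 4.85 and 5.18 to 18.9 and 22.2 CPM (1.84, SE 0.10), Icam1, the ligand of LFA-1, from 98.4 and 95.4 to 257 and 294 CPM (1.49, SE 0.06), and Cd69 and Vcam1 rose by 0.86 (SE 0.13) and 0.71 (SE 0.08). Cd80 rose by 0.58 (SE 0.08), and Cd86 by 0.31 (SE 0.06). Icosl, the ligand of ICOS, which was not on this list, went from 5.11 and 4.96 to 17.3 and 21.4 CPM (1.75, SE 0.10). MHC class II genes took no part in that rise. None of 9 was higher, and the 3 that fell were the class II transactivator Ciita (2.48 and 2.98 to 1.32 and 1.22 CPM, -0.71, SE 0.12) and the peptide-loading genes H2-DMa (-0.38, SE 0.05) and H2-DMb1 (-0.22, SE 0.06), the last with an adjusted p of 0.097 without replicate 1 of the 1 h group. H2-Aa, H2-Ab1, H2-Eb1 and Cd74 changed by -0.08 to -0.03 and did not pass.

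Metabolic genes rose in the lists of HIF-1 and NRF2, each known from activated macrophages. Of 20 genes of glycolysis and the HIF-1 response 12 rose and 1, Pfkm, fell (-0.34, adjusted p 0.053 without replicate 3 of the 3 h group). Hif1a itself was at 356 and 352 CPM in control, lower at 1 h with 239 and 241, and higher at 3 h with 457 and 478 (0.96, SE 0.06). The glucose transporter Slc2a1 rose by 1.03 (SE 0.07), the lactate exporter Slc16a3 by 0.83 (SE 0.07), and Egln3, a prolyl hydroxylase that marks HIF for decay, by 1.20 (SE 0.12). The abundant enzymes Gapdh, Pkm, Aldoa, Ldha and Pgam1 changed by -0.01 to 0.13 and did not pass. Of 13 NRF2 targets 10 rose and none fell. Slc7a11, the cystine importer that supplies glutathione synthesis, went from 57.0 and 58.9 to 199 and 251 CPM (1.93, SE 0.07). Txnrd1, Sqstm1 and Nfe2l2, the gene of NRF2, rose by 0.97, 0.83 and 0.74.

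Sterol genes were moderate. Of 22 genes of sterol synthesis and uptake 11 rose and 2 fell, the largest change being 0.55 in Hsd17b7; 1 fell without replicate 1 of the 1 h group or without replicate 3 of the 3 h group. The sterol exporters went apart. Abca1, below control at 1 h (83.9 and 92.7 against 143 and 137 CPM), rose to 214 and 205 CPM (1.24, SE 0.06), and Abcg1 fell from 95.1 and 100 to 66.1 and 58.1 CPM (-0.65, SE 0.06). Nr1h3, which encodes the receptor LXRα that activates both, rose by 0.79 (SE 0.06). Of 11 metal handling genes 5 rose and 2 fell, and 3 rose and 0 fell without replicate 1 of the 1 h group. The importers Slc11a2 and Slc39a14 rose by 0.84 (SE 0.05) and 0.79 (SE 0.08). The metallothionein gene Mt1 and the iron exporter gene Slc40a1 had changes of -0.18 and -0.19, and neither passed without replicate 2 of the 3 h group. After the correction for length and GC content 3 were higher and 1 lower. Without it the shares were 45.5% higher and 18.2% lower, against 16.2% and 15.3% of all genes.

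Apoptosis genes moved in both directions, 47.6% higher and 23.8% lower, against 16.2% and 15.3% of all genes. Those that rose include the inhibitors Traf1 (1.49, SE 0.07), Birc3 (58.9 and 57.8 to 114 and 122 CPM, 1.00, SE 0.05) and Cflar, which blocks caspase 8 (81.0 and 82.7 to 158 in each library, 0.94, SE 0.05). Genes of the family Bcl2a1 rose as well, Bcl2a1a by 1.60 and Bcl2a1d by 0.96, but its copies are nearly identical and reads may be divided among them. Those that fell include the pro-apoptotic BH3-only genes Bmf (33.4 and 35.4 to 16.8 and 13 CPM, -1.16, SE 0.08), Bcl2l11 (-0.47, SE 0.05) and Bid (-0.32, SE 0.06). In all, 10 of 21 rose and 5 fell, with 3 falling without replicate 1 of the 1 h group. Among 10 inflammasome genes 6 rose and 2 fell, with 1 falling without replicate 3 of the 3 h group: Nlrp3, the sensor, went from 93.1 and 96.6 to 241 and 294 CPM (1.48, SE 0.07) and Casp4, the caspase that senses intracellular lipopolysaccharide, from 27.1 and 26.8 to 51.3 and 57.1 (0.98, SE 0.07), while the adaptor Pycard fell from 94.4 and 89.3 to 76.8 and 72.5 CPM (-0.30, SE 0.05).

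Transcription factors of macrophage identity and activation rose and fell in equal number, 11 each of 32 (34.4%, against 16.2% and 15.3% of all genes). Ets2 went from 84.7 and 87.9 to 246 and 305 CPM (1.66, SE 0.07). Hivep3 and Hivep2, large zinc finger proteins that bind κB-like sites, rose by 1.76 (SE 0.16) and 1.02 (SE 0.13); Hivep3 had been at 6.25 and 5.61 CPM in control and 1.48 and 2.48 at 1 h, and reached 9.08 and 8.80 at 3 h. Batf and Cebpd rose by 0.76 and 0.50. The myeloid factors Cebpa (97.8 and 93.7 to 58.2 and 59.3 CPM, -0.70, SE 0.05) and Irf8 (-0.39, SE 0.04) fell, while Spi1, the gene of PU.1, rose by 0.38 (SE 0.06).

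Further genes entered by the size of their change. Rasgrp1, an exchange factor that activates Ras, was scarce at 1.37 and 1.03 CPM at 1 h and at 10.3 and 12.7 at 3 h (2.5, SE 0.12), a 9.58-fold ratio of mean CPM. Marcksl1, an actin-binding relative of MARCKS, was raised in both intervals, at 94.4 and 101 CPM in control, 170 and 157 at 1 h and 570 and 781 at 3 h (2.03, SE 0.09). Cd38, an enzyme that consumes NAD, went from 27.9 and 26.3 to 102 and 125 CPM (2.02, SE 0.08). Serpinb2, the plasminogen activator inhibitor PAI-2, went from 23.5 and 24.2 to 83.3 and 104 CPM (1.92, SE 0.08). Ifi205, of the interferon-inducible PYHIN family, rose by 2.11 (SE 0.13), with close relatives among which reads may be divided.

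The largest falls other than those of Egr1 and Zfp36 were in genes that did not pass as higher at 1 h than in control. Rnf144b, a ubiquitin ligase, was at 33.1 and 31.4 CPM in control, 27.3 and 26.0 at 1 h, and 11.6 and 9.32 at 3 h (-1.27, SE 0.08). Rgs2, which turns off Gq-coupled signalling, was at 113 and 120 CPM in control, 125 and 120 at 1 h, and 57.7 and 49.0 at 3 h (-1.19, SE 0.07). Engase, a glycosidase that trims free N-glycans, fell by 1.13 (SE 0.09), Abcd2, a peroxisomal fatty acid transporter, by 1.11 (SE 0.08), and the arrestin relative Arrdc3 by 1.00 (SE 0.07). Fam214a, Lrrc14b, Gpr155 and Mtus1 fell by 1.01 to 1.10, and the transporters Slc26a11 and Slc46a3 and the small GTPase Rab19 by 0.92 to 0.95. In all of these both 3 h libraries lay below both 1 h libraries and both control libraries. Lying below both 1 h libraries was a condition for naming them, and held in 33.5% of all genes tested. Mtus1 differed most between the 3 h libraries, at 37.0 and 25.3 CPM.

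Of 32 interferon-response genes 7 rose (21.9%, against 16.2% of all genes) and 5 fell (15.6%, against 15.3%), with a median of -0.04. These counts changed with single libraries: 4 rose and 10 fell without replicate 3 of the 1 h group, and 2 fell without replicate 1 of the 1 h group or without replicate 3 of the 3 h group. The largest rises were in Cxcl10 and in guanylate-binding protein genes, Gbp5 by 1.13 (SE 0.12) and Gbp2 by 0.77 (SE 0.08). Irf7, Isg15, Rsad2 and Mx1 had changes from -0.05 to 0.11 that did not pass. Of 23 cell cycle genes 1 was higher and 3 were lower, of 22 ribosome biogenesis genes 3 and 1, and of 269 genes named Zfp for zinc fingers 22 (8.18%) and 23 (8.55%). Without replicate 3 of the 1 h group 0 cell cycle genes and 14 Zfp genes were lower. Without replicate 1 of that group 1 ribosome biogenesis gene was higher, and 14 Zfp genes were higher and 14 lower. For the Zfp genes, leaving out replicate 2 of the 3 h group gave 14 higher and 26 lower, and leaving out replicate 3 gave 21 higher and 11 lower.

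Cytosolic ribosomal protein genes moved slightly and together in these 4 libraries, 50 of 79 lower and 1 higher, with a median of -0.16. That count changed with single libraries: 1 of 79 fell without replicate 1 of the 1 h group and 13 without replicate 2 of the 3 h group. Oxidative phosphorylation genes, 18 of 66 lower and 1 higher, had 1 and 2 lower in the same fits and 31 lower without replicate 3 of the 1 h group. Transcript length moved with these results. Over 11366 matched genes the change had a Spearman correlation of 0.26 with transcript length and -0.25 with GC content, and the median transcript was 3743 bases in genes that rose and 2477 in genes that fell, against 2987.5 in all. The correlation with length had been -0.73 for 1 h against control. After removal of a trend in length and GC, 1860 genes were higher (16.4%) and 1916 lower (16.9%). All 128 and 11 genes changed at least 2-fold still passed in the same direction, though chosen for large changes in these libraries. After that removal 31 of 79 ribosomal protein genes were lower, and of 66 oxidative phosphorylation genes 9 were lower and 2 higher. Genes are not independent replicates, and the part of transcript length in the other results was not tested.

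**Figure D4:**
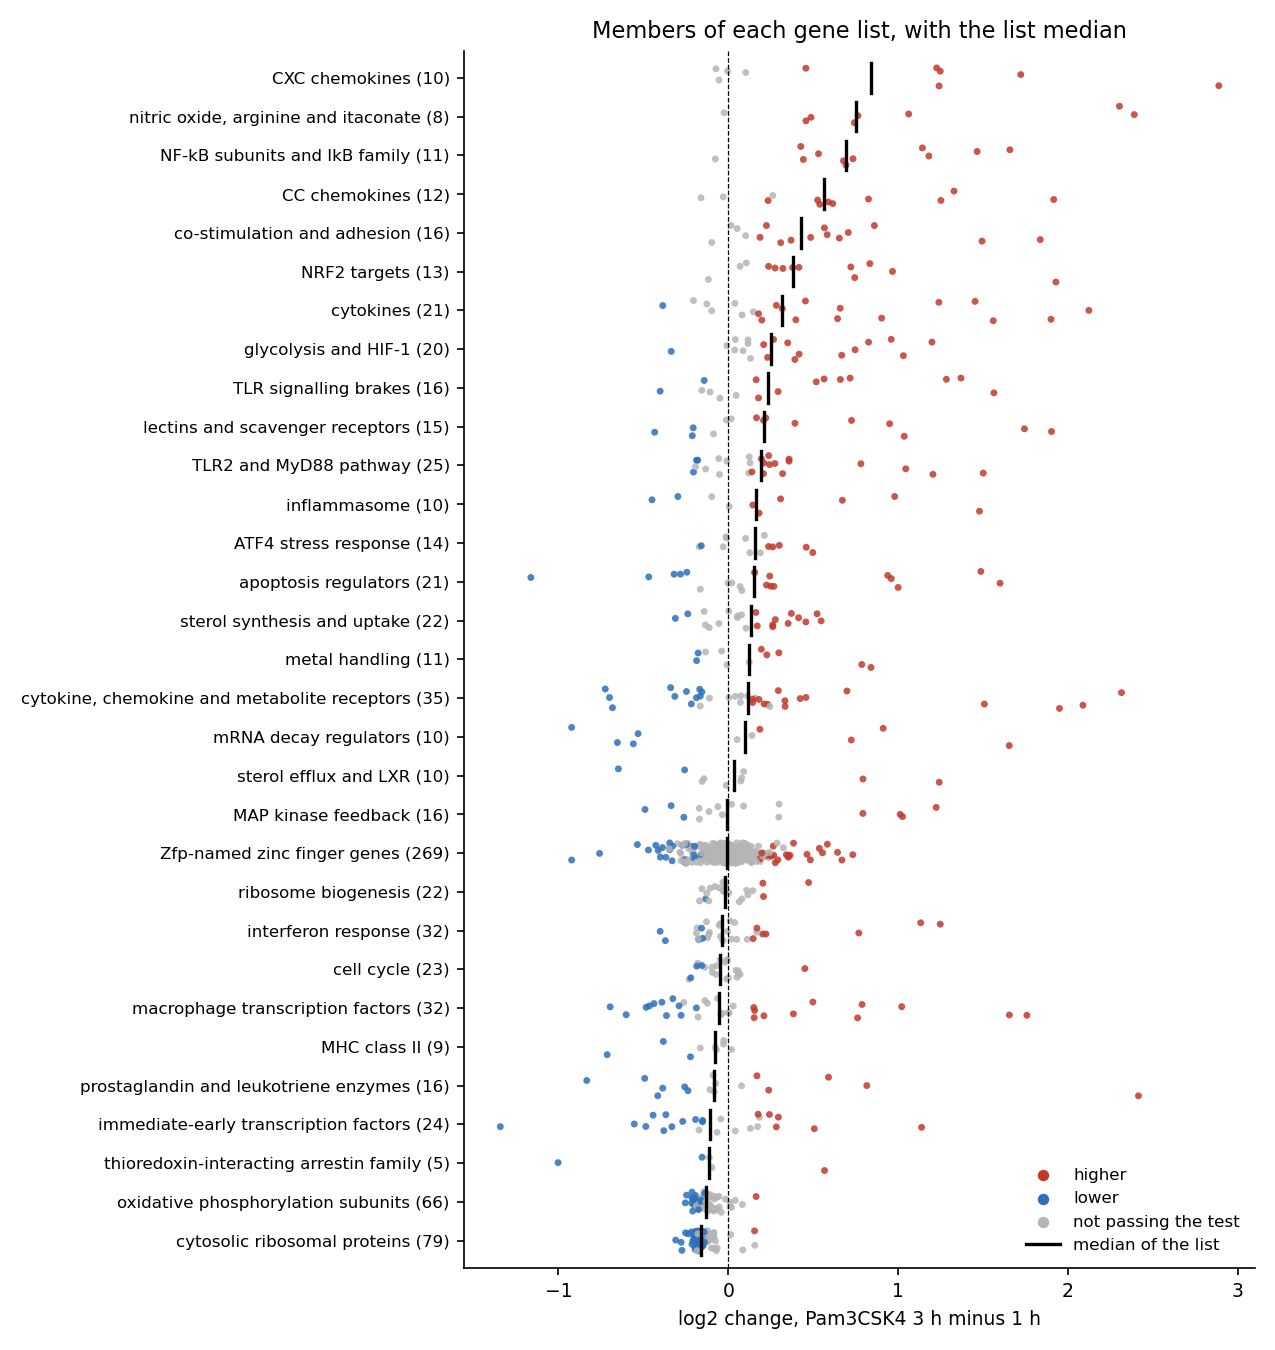
Log2 change from 1 h to 3 h of every tested member of 31 gene lists, ordered by list median (black bar), with the number tested in parentheses. Red members rose, blue fell and grey did not pass; CXC chemokines have the highest median at 0.84 and cytosolic ribosomal proteins the lowest at -0.16.

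In the RefSeq promoter windows the NF-κB consensus, searched on both strands, was found in 12.4% of 9107 tested genes and in 8.46% of all 32851 windows. It was found in 27 of 109 genes that rose at least 2-fold (24.8%) and in 1 of 8 that fell that far. The AP-1 site TGANTCA was in 6.21% of tested genes, 7.81% of all windows and 13 of the 109 genes (11.9%). The cAMP response element TGACGTCA was in 3.61%, 1.79% and 3 of 109, and the CArG box of serum response factor in 1.6%, 1.63% and 1 of 109. These are matches of letters within 300 bases, not measured binding.

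Over the same interval AmTARS changed far fewer genes: 206 rose (1.81%) and 65 fell (0.57%), with no rise past 0.84 and no fall past -0.64. The difference between the changes under the ligands was tested as an interaction, which passed for 9.2% of genes. It was positive for 651 genes (5.71%) and negative for 398 (3.49%), 675 in all without AmTARS 3 h replicate 1. The doses are not matched, so a dose difference and a ligand difference cannot be told apart. Il1b, Serpinb2 and Icosl had AmTARS changes of 0.02, 0.07 and 0.03 that did not pass, against 2.12, 1.92 and 1.75 for Pam3CSK4. Irg1, which had the largest rise under AmTARS, went from 182 and 176 to 309 and 332 CPM there (0.84, SE 0.08). Cxcl3 went from 33.3 and 30.6 to 45.3 and 42.9 CPM (0.45, SE 0.11), below both Pam3CSK4 libraries at 3 h. Tnf and Nfkbia fell under AmTARS, by 0.46 (SE 0.07) and 0.23 (SE 0.05), where under Pam3CSK4 they rose, with interactions of 0.78 and 0.67. Egr1 was at 6.67 and 8.29 CPM at 1 h and 8.06 in each library at 3 h of AmTARS. Txnip, the thioredoxin-interacting arrestin, rose under AmTARS from 230 and 232 to 369 and 361 CPM and fell slightly under Pam3CSK4 from 421 and 420 to 379 and 377 (interaction -0.81, SE 0.06). The Pam3CSK4 change of Txnip had an adjusted p of 0.055 when only the groups compared were fitted. Scd2, a fatty acid desaturase, behaved likewise with an interaction of -0.86 (SE 0.08). Of the 22 sterol synthesis genes 17 rose under AmTARS, with a median change of 0.39 against 0.13 for Pam3CSK4, and the interaction was negative for 11 and positive for none.

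Beside the untreated libraries, 48.7% of genes differed at 1 h of Pam3CSK4 and 48.9% at 3 h, comparisons that share the control libraries with each other and the Pam3CSK4 libraries with the one described here. Side by side, Cxcl3 was 0.54 above control at 1 h and 3.43 above it at 3 h, and Tlr2 0.24 and 1.74. For Tnf the values were 2.75 and 3.07 and for Nfkbia 1.28 and 1.72. Zfp36 stood 1.33 above control at 1 h and 0.41 above it at 3 h, and Egr1 1.52 and 0.18, the latter not passing. Hif1a, Abca1, Zc3h12c, Slc7a2, Nfkb1, Irak3 and Slc7a11 passed as lower than control at 1 h and as higher at 3 h, with values of -0.66 to -0.24 and 0.40 to 1.65. The change at 1 h against control had a Spearman correlation of -0.73 with transcript length. Genes lower than control at 1 h had a median transcript of 5028.5 bases, against 2987.5 in all. The part of length in these and the other levels below control at 1 h was not tested.

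**Figure D5:**
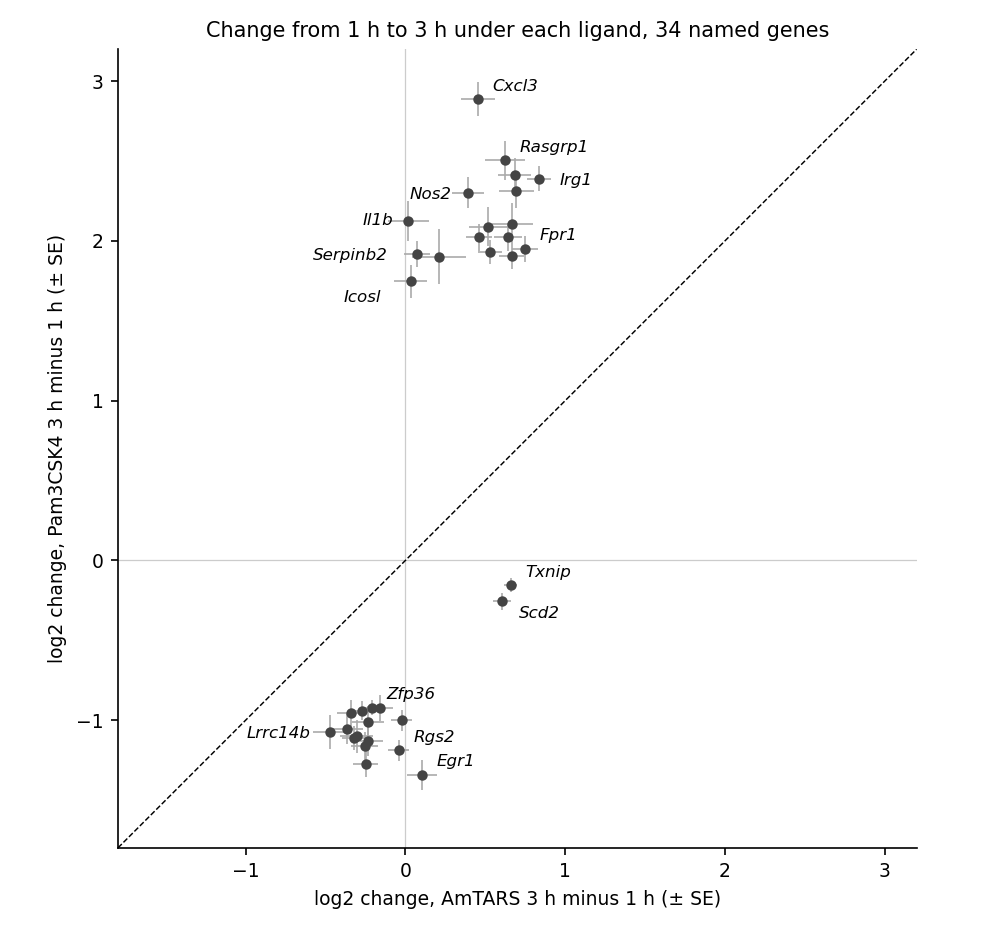
Log2 change from 1 h to 3 h under AmTARS (horizontal) and Pam3CSK4 (vertical) of 34 genes named by the size of their change or of their interaction, each with SE bars; the dashed line marks equal change. Genes that rose under Pam3CSK4 lie at 1.75 to 2.89 on the vertical axis and at 0.02 to 0.84 on the horizontal axis, and Txnip and Scd2 lie at 0.66 and 0.60 horizontally and below 0 vertically.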

How the data were processed

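The study sequenced poly(A) RNA of 10 libraries, 2 per group. The table the authors deposited holds log2 values of normalized CPM per gene symbol, as its name says, and their offset of 1 was read from the values. The submitters' processing notes name STAR 2.5.1, R 3.3.0 and mm10; the scaling, gene counter, annotation and use of strand are not given in the sources used here. Back-transformed values were whole reads (within 0.1 read) in 100% of cases, 27398791 to 37559810 per library.

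The 11407 genes averaging 1 CPM or more over all libraries were fitted with limma 3.58.1 in R 4.3.3 (intensity trend, 1 mean per group, all 10 libraries), with Benjamini-Hochberg adjustment over all of them and a threshold of 0.05. The script was tested on simulated data. Tables and plots used Python 3.11.15, pandas 2.3.3 and matplotlib 3.10.9. Lengths and 3′ regions came from GENCODE M21 and promoters from RefSeq, GRCm38.p6.

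The genes named are the 15 largest rises and falls, the 8 largest interactions in each direction, the 5 genes most like Tlr2, and members of the gene lists. The rises and falls had a mean of at least 5 CPM in the higher group and no overlap of the groups. The comparison and the lists were chosen with earlier results of these data known. Alternatives covered filter, pseudocount, normalization, trend, libraries fitted, replicate block, length and GC correction, voom on recovered reads, and leaving out each library. Some genes of the lists are not reported here.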

Additional observations from a re-analysis of the deposited data

Results flagged for a closer look

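The change from 1 h to 3 h differed between Pam3CSK4 and AmTARS, by the test of the interaction in limma with adjustment over all genes, in the positive direction for 651 genes and in the negative direction for 398. The doses of the ligands are not matched. The largest positive differences on the log2 scale were those of Cxcl3 (2.44), Il1b (2.11), Nos2 (1.91), Rasgrp1 (1.88), Serpinb2 (1.84), Ptges (1.73), Icosl (1.71) and Il6 (1.69). The largest negative differences were those of Egr1 (-1.44), Rgs2 (-1.15), Rnf144b (-1.02), Arrdc3 (-0.98), Bmf (-0.91), Engase (-0.90), Scd2 (-0.86) and Txnip (-0.81).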

How the results depend on the processing

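The count of 3597 changed genes stayed within 1.5 times of itself in every alternative that kept all libraries (2648 to 3776). Leaving out 1 library gave 2381 to 3490, with 1318 to 1816 higher and 1063 to 1674 lower, the lowest without replicate 1 of Pam3CSK4 1 h. Quantile normalization gave 1576 higher and 2014 lower. The deviations of groups with the same 2 numbers correlated from -0.179 to 0.204, which does not show that the numbers pair the libraries; the Pam3CSK4 groups share only number 3. With the replicate block 2648 genes changed, 1453 higher and 1195 lower. With that block the interaction gave 672 genes, 421 higher and 251 lower, and AmTARS gave 30 lower. Without an intensity trend the interaction gave 680 genes, 229 of them lower, and AmTARS 63, with 55 higher and 8 lower. When only the groups compared were fitted AmTARS gave 492, with 349 higher and 143 lower; after length and GC correction it gave 450, of which 150 were lower. Leaving out 1 library gave 675 to 1333 interaction genes, 449 to 748 higher and 222 to 585 lower, and 89 to 381 AmTARS genes, 76 to 272 higher and 8 to 109 lower. The causes were not tested. Of 206 single genes that passed, 145 kept direction and call in every alternative; of 4976 pairs of gene and alternative 246 lost the call, 2 gained it and 0 reversed. A fit of only the genes matched to the annotation was added after seeing the data. An edgeR fit of the recovered reads was planned and not run; voom on those reads gave 3503. With 2 libraries a group, precision is limited by replication, and a library left out leaves 1 that is assumed to vary like the other groups.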
